A study of Elodea nuttallii and Chlamydomonas reinhardtii with 18 samples.

Results

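The genes described here are those of Chlamydomonas reinhardtii whose transcripts peaked at Babeni site 1, one of 3 exposure sites on the River Olt. A gene was taken where its mean log2(CPM + 0.5) over the Babeni site 1 libraries was at least 1 above that of Valcea and at least 1 above that of Babeni site 2. CPM is the deposited signal, a read count scaled by a factor of its library, and a log2 difference of 1 is 2-fold. The table holds 13566 genes. A minimum of 1 CPM was reached in 3 or more of the 9 libraries by 13556 of them, and 148 of these met the rule. The members were thus chosen by their CPM values at the 3 sites, so their height at Babeni site 1 is given below as a description with no test.

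Cells were grown to mid-exponential phase in tris-acetate-phosphate medium diluted 4 times and were then placed in the river for 2 h, at Babeni site 1, at Babeni site 2 or at Valcea. Each site has 3 libraries, and the sample names of the Valcea libraries call them the control. By its title the series is about mercury toxicity in situ, and neither a mercury level nor the strain was given in the sources used here. Whether the 3 libraries of a site are separate cultures is not stated in the labels, so a p-value covers the scatter of these libraries alone, and that scatter may be technical.

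Chlamydomonas reinhardtii is a unicellular green alga with a single cup-shaped chloroplast and a pair of flagella. It grows by photosynthesis or on acetate, which the medium supplies, and its transcripts are known to change within hours with light, carbon supply, nutrients and metals. The deposited files pair no gene identifier with a name or a function, so no role is given to any gene. For members with large rises or falls between Babeni site 2 and Valcea, 4 identifiers are printed. For the same reason the cells could not be set against marker genes.

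The libraries held 10322089 to 14097458 reads, and 3 reads amount to 0.202 to 0.293 CPM. The Babeni site 1 libraries differed more among themselves than those of the other sites. Over the 13556 tested genes the correlation of log2 values was 0.947 to 0.97 between Babeni site 1 libraries, 0.989 to 0.991 between Babeni site 2 libraries and 0.985 to 0.993 between Valcea libraries. Replicate 1 of Babeni site 1 correlated at 0.969 with replicate 2 and at 0.947 with replicate 3 of its own site, and at 0.949 to 0.951 with the Valcea libraries. By chi-square per gene on recovered reads, on which abundant genes weigh more, it stood at 61.8 and 82.0 from those replicates of its own site and at 98.4 to 167 from the Valcea libraries. Replicate 3 likewise correlated at 0.946 to 0.948 with the Valcea libraries, and at 0.97 with replicate 2 of its own site. Its chi-square was 82.0 from replicate 1 and 58.6 from replicate 2, and 76.4 to 107 from the Valcea libraries. Replicate 2 correlated less with Valcea (0.94 to 0.948) than with its own site. These values share the genes' overall levels and are a description.

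Members stood above Valcea by 1.01 to 3.97 on the log2 scale (median 1.46) and above Babeni site 2 by 1.02 to 4.00 (median 1.60). Over all tested genes the medians of these differences were -0.01 and 0.03. The margin of a gene is the smaller of its 2 differences, and the median margin of the members was 1.27. A margin of at least 1.5 was held by 45 members and a margin of at least 2 by 8. The difference from Babeni site 2 was the larger one in 81 members, and the difference from Valcea was the larger one in 67. The 3 members just inside the threshold had margins of 1.01, 1.02 and 1.03, and the 3 tested genes just outside it had margins just under 1, the lowest being 0.996. The rule with another site in first place gave 1506 genes highest at Babeni site 2 and 241 genes highest at Valcea, and 58 genes were lowest at Babeni site 1.

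**Figure D1:**
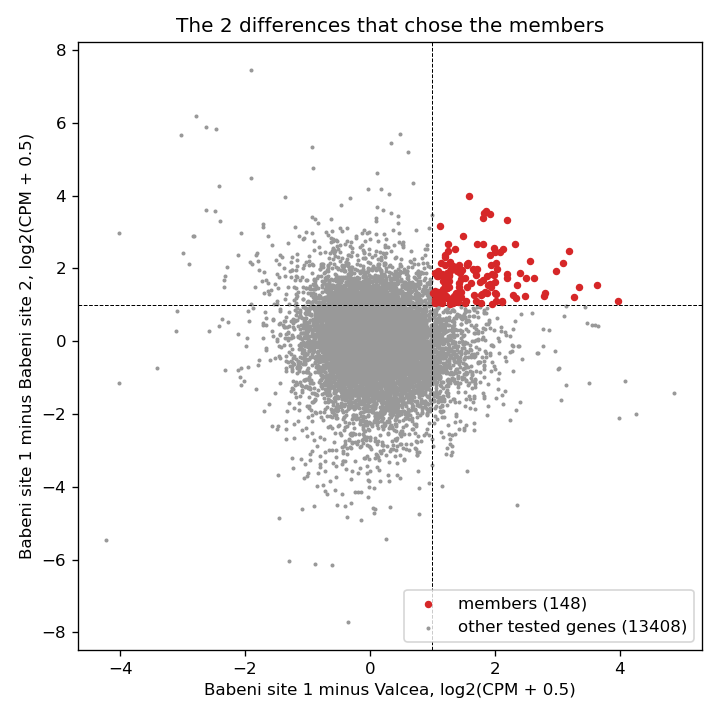
Babeni site 1 minus Valcea (horizontal axis) against Babeni site 1 minus Babeni site 2 (vertical axis), both as differences of mean log2(CPM + 0.5), for each tested gene; dashed lines mark the threshold of 1. The 148 members fill the upper right corner by construction and reach 3.97 on the horizontal and 4.00 on the vertical axis.

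The member with the largest margin stood at 17.4, 108 and 79.6 CPM in the Babeni site 1 libraries (replicates 1 to 3), at 7.93, 10.04 and 9.66 CPM at Babeni site 2 and at 4.55, 6.42 and 5.45 CPM at Valcea. Its Babeni site 1 libraries held 259, 1313 and 912 reads. All 3 of them lay above the other 6 libraries, and replicate 1 was well below the other 2. The member with the highest mean at Babeni site 1 had 2544, 3740.5 and 3085 CPM there, 879.6, 888 and 869 CPM at Babeni site 2 and 1150.2, 1569 and 1156 CPM at Valcea. Its margin was 1.27, and again no library of Babeni site 1 overlapped the others.

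Among the 106 members with a mean of at least 5 CPM at Babeni site 1 and no overlap with the other libraries, the 12 largest margins ran from 1.93 to 2.48. Their means at Babeni site 1 were 6.48 to 289.6 CPM, against 0.861 to 44.96 CPM at Babeni site 2 and 0.937 to 67.1 CPM at Valcea. The 6 highest means at Babeni site 1 were 819.5 to 3123 CPM, against 54.98 to 879 CPM at Babeni site 2 and 248 to 1292 CPM at Valcea. All 6 of these had a lower mean at Babeni site 2 than at Valcea, by 0.22 to 2.41 on the log2 scale. CPM values are not corrected for gene length, so they show the reads behind each gene and not its rank among genes.

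Over all members the mean at Babeni site 1 ran from 2.02 to 3123 CPM with a median of 34.4 CPM. The medians of the means were 10.1 CPM at Babeni site 2 and 10.6 CPM at Valcea. A mean of at least 100 CPM at Babeni site 1 was found in 50 members, 5 to 100 CPM in 82 and under 5 CPM in 16. Each member had at least 3 reads in every Babeni site 1 library, and 9 had fewer than 3 reads in some library of another site. As a group the members took 1.66%, 3.01% and 2.84% of the reads in Babeni site 1 replicates 1 to 3, 0.676% to 0.679% at Babeni site 2 and 0.763% to 0.859% at Valcea. In bulk samples, fewer cells that use a gene and less of its RNA per cell cannot be told apart.

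In 119 of the 148 members all 3 Babeni site 1 libraries lay above the other 6, which was so for 4.86% of all tested genes. The rule used these values, so nothing is read from that count. The other 29 members overlapped. Replicate 2 lay above all 6 libraries of the other sites in 148 members, replicate 3 in 144 and replicate 1 in 123. Replicate 2 was at least 2-fold above the highest of those 6 libraries in 108 members, replicate 3 in 99 and replicate 1 in 18. The median member was 1.06 above the mean log2 value of the other 6 libraries in replicate 1, 1.93 in replicate 2 and 1.80 in replicate 3.

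**Figure D2:**
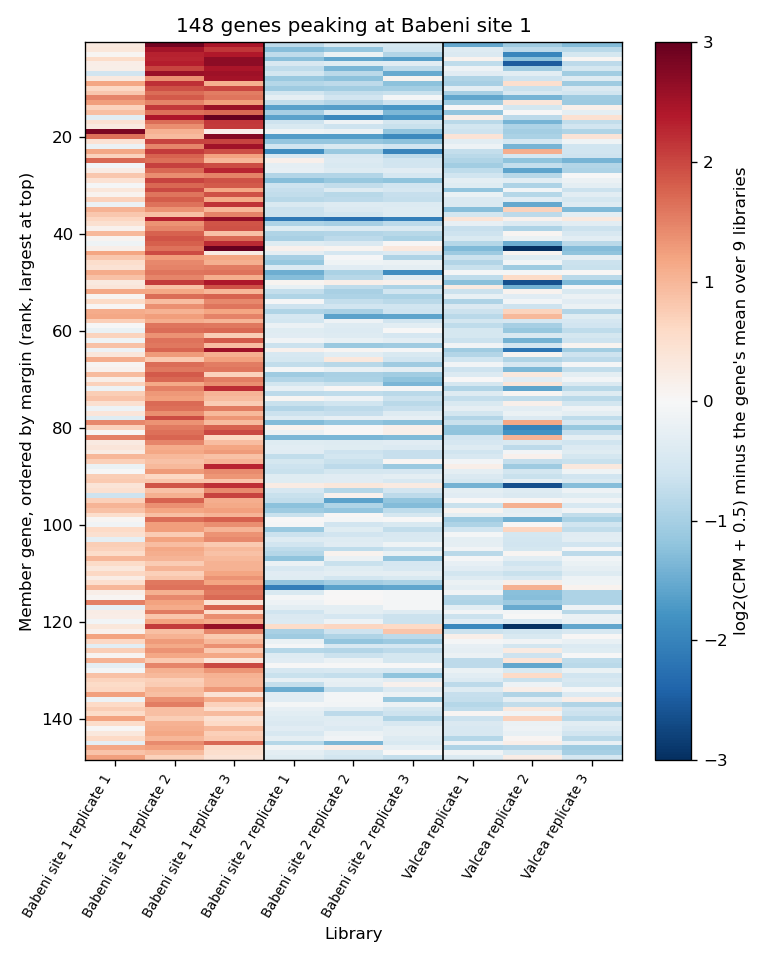
Each row is a member, ordered by margin, and each column a library; colour gives log2(CPM + 0.5) minus the gene's mean over the 9 libraries, and colours stop at ±3. Replicates 2 and 3 of Babeni site 1 are the darkest red columns, replicate 1 is paler in most rows, and Valcea replicate 2 departs from its site in both directions.

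Replicate 1 was the lowest of the Babeni site 1 libraries in 122 members (82.4%), against 36.6% of all tested genes. It was the highest in 11 members, replicate 2 in 59 and replicate 3 in 78. The highest Babeni site 1 library exceeded the lowest by 1.02-fold to 14.2-fold, with a median of 2.20-fold. This ratio was under 2 in 64 members and at least 4 in 28. The SD of log2 values within Babeni site 1 had a median of 0.57 over members and 0.31 over tested genes. At Babeni site 2 these medians were 0.15 and 0.13, and at Valcea 0.31 and 0.17. The members thus varied more between replicates than the median tested gene at Babeni site 1 and at Valcea, and by about as much at Babeni site 2. The site means of the rule come from these same libraries, and a mean of 3 libraries that scatter widely passes a threshold more easily, so this spread is not independent of the choice of members.

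Of the 9 libraries, replicate 1 of Babeni site 1 moved the size of the set most when left out. Without it the same rule gave 250 genes, of which 139 were among the 148. Without Babeni site 1 replicate 2 or replicate 3 it gave 131 and 134 genes, with 113 and 112 of the 148 among them. Without Valcea replicate 2 it gave 175 genes, with 143 of the 148 among them. In all, 80 of the 148 members met the rule whichever of the 9 libraries was left out.

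In some members replicate 1 of Babeni site 1 did not stand low. A member picked with its values in view stood in the Babeni site 1 libraries at 30.04, 35.5 and 30.01 CPM, with 7.15, 6.43 and 7.81 CPM at Babeni site 2 and 5.58, 15.96 and 5.53 CPM at Valcea. Its Babeni site 1 libraries lay close together, and within Valcea replicate 2 was well above the other 2 libraries. Another, also chosen after its values were seen, lay in them at 21.6, 6.00 and 2.97 CPM, with 2.35, 2.29 and 0.878 CPM at Babeni site 2 and 1.55, 1.04 and 1.18 CPM at Valcea. Here replicate 1 carried the height at Babeni site 1, against the order seen in most members.

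Valcea replicate 2 also departed from its site in many members, in both directions. It was at least 0.5 below the mean of replicates 1 and 3 on the log2 scale in 33 members (22.3%) and at least 0.5 above it in 34 (23.0%). Over all tested genes these shares were 8.13% and 8.19%. The split at 0.5 was chosen after the values were seen and carries no test.

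Members on either side of this split also differed in their order within Babeni site 1. Of the 33 members in which Valcea replicate 2 was low, 31 were higher in replicate 3 than in replicate 2 of Babeni site 1, and 31 had replicate 1 as the lowest library of that site. Their median difference of replicate 1 from the other 2 Babeni site 1 libraries was -1.80. Of the 34 members in which Valcea replicate 2 was high, 9 were higher in replicate 3 than in replicate 2 and 19 had replicate 1 as the lowest. Their median difference of replicate 1 from the other 2 was -0.31. The remaining 81 members lay between, with a median of -0.82 and 38 higher in replicate 3 than in replicate 2.

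Across the 148 members the deviation of Valcea replicate 2 and the difference of replicate 3 from replicate 2 at Babeni site 1 had a Pearson correlation of -0.57, against -0.21 across all tested genes. The points share the same libraries, and genes are not independent replicates.

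**Figure D3:**
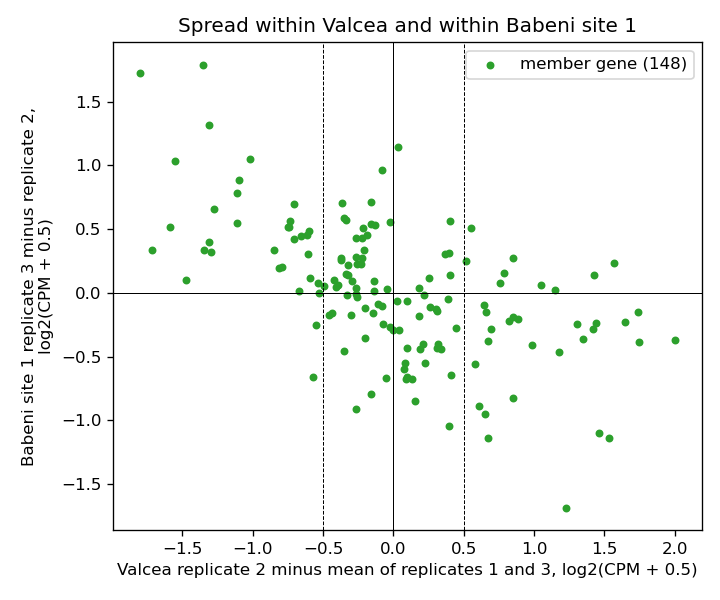
Each point is a member; the horizontal axis is Valcea replicate 2 minus the mean of Valcea replicates 1 and 3, the vertical axis is Babeni site 1 replicate 3 minus replicate 2, both in log2(CPM + 0.5), and dashed lines mark ±0.5. Of the 33 points left of the left dashed line, 31 lie above 0, and of the 34 points right of the right dashed line, 9 do.

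The comparison that the rule did not name is that of Babeni site 2 with Valcea. It asks whether the members, low at both sites beside Babeni site 1, also differed between these. A gene is said to have risen or fallen where it differed 2-fold or more and its p from limma, Benjamini-Hochberg adjusted over all tested genes, was under 0.05. Of the 148 members 10 rose at Babeni site 2 against Valcea, 13 fell and 125 did not pass. Among those 125, 18 had an adjusted p under 0.05 but differed less than 2-fold. A further 3 differed 2-fold or more but missed the p threshold. The SE of this fit includes the scatter within Babeni site 1, which was wider in members than in the median tested gene. A limma p under 0.05 before adjustment was held by 46 members, and by 74 with only the libraries of Babeni site 2 and Valcea fitted. The members called were 23 and 26 in these fits. Members that did not pass are thus not shown to be alike at the 2 sites. Among all tested genes 19.6% rose and 16.6% fell, 36.2% in all, against 15.5% of the members. The Babeni site 2 and Valcea libraries entered the rule, which takes a gene only if Babeni site 1 is 2-fold above the higher of them, so the members' share is not independent of their choice. The median difference was -0.09 over members and -0.01 over tested genes, and 122 members (82.4%) lay within 2-fold, against 63.7% of tested genes. The authors' deposited table of this comparison lists 12 members as higher at Babeni site 2 and 18 as lower, against 21.7% and 18.8% of all genes.

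**Figure D4:**
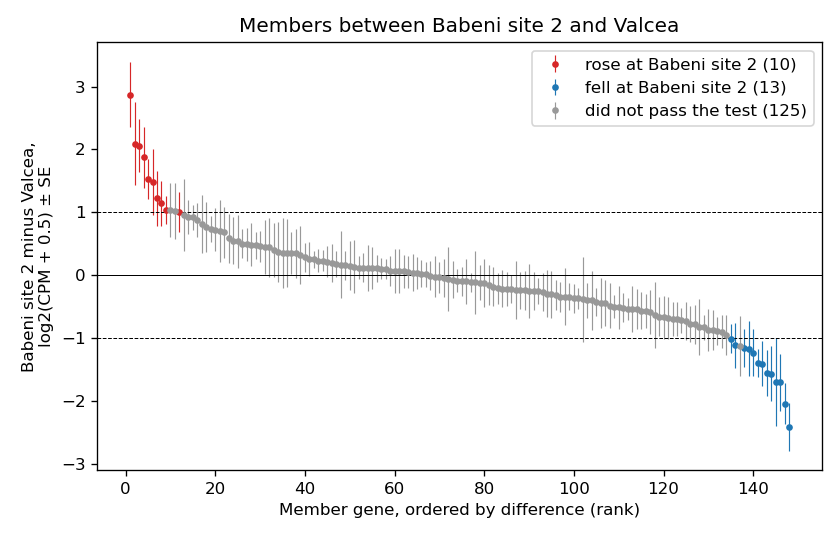
Babeni site 2 minus Valcea for each member, in log2(CPM + 0.5) with its standard error (limma), ordered from the largest to the smallest difference; dashed lines mark 2-fold. The 10 red members rose, the 13 blue ones fell, and the 125 grey ones missed the 2-fold or the p threshold. Differences ran from -2.41 to 2.87 in all.

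The largest rise was that of Cre17.g720250, with 132, 142 and 137 CPM at Babeni site 2 against 23.2, 8.50 and 30.3 CPM at Valcea. The 2 groups did not overlap. The difference was 2.87 ± 0.52 on the log2 scale (SE; limma adjusted p = 0.00047). At Babeni site 1 this gene had 114, 390.1 and 559 CPM, so replicate 1 of that site lay below all 3 libraries of Babeni site 2. Its margin of 1.09 over Babeni site 2 thus rested on replicates 2 and 3.

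Cre06.g268600 had 6.02, 5.81 and 6.93 CPM at Babeni site 2 against 1.89, 0.189 and 1.92 CPM at Valcea, and the groups did not overlap. The Valcea libraries held 22, 2 and 26 reads of it. The difference was 2.09 ± 0.66 (SE; limma adjusted p = 0.015). It moved with the pseudocount, to 2.59 with 0.1 and to 1.36 with 2 (limma adjusted p = 0.013 and 0.043). Without Valcea replicate 2, its lowest library, the difference was 1.49 and the call was lost (limma adjusted p = 0.079). At Babeni site 1 it had 6.20, 18.0 and 60.6 CPM, and replicate 1 lay among the Babeni site 2 libraries.

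The steepest fall was that of Cre12.g546600, with 54.8, 51.4 and 58.7 CPM at Babeni site 2 against 318, 268 and 300.2 CPM at Valcea. Within Babeni site 2 and within Valcea the replicates lay close together, and these sites were far apart. The difference was -2.41 ± 0.38 (SE; limma adjusted p = 0.00016). This SE includes the scatter within Babeni site 1, where the SD of log2 values was 1.07, against 0.096 at Babeni site 2 and 0.126 at Valcea. With only the libraries of Babeni site 2 and Valcea fitted, the limma adjusted p was 7e-10. At Babeni site 1 this gene had 378, 1206 and 1519 CPM, all above Valcea, with replicate 1 the nearest to it.

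Cre12.g508300 had 0.959, 1.497 and 1.56 CPM at Babeni site 2 against 4.55, 12.3 and 6.04 CPM at Valcea, again with no overlap. The Babeni site 2 libraries held 11, 17 and 16 reads of it. The difference was -2.05 ± 0.32 (SE; limma adjusted p = 0.00017). Its size moved with the pseudocount, to -2.33 with 0.1 and to -1.45 with 2. Without Valcea replicate 2, its highest library at that site, the difference was -1.66. The call was kept in these 3 fits (limma adjusted p = 0.00013, 0.00049 and 0.00055). Its Babeni site 1 libraries stood at 11.6, 18.4 and 18.7 CPM, and replicate 1 of that site lay below Valcea replicate 2.

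**Figure D5:**
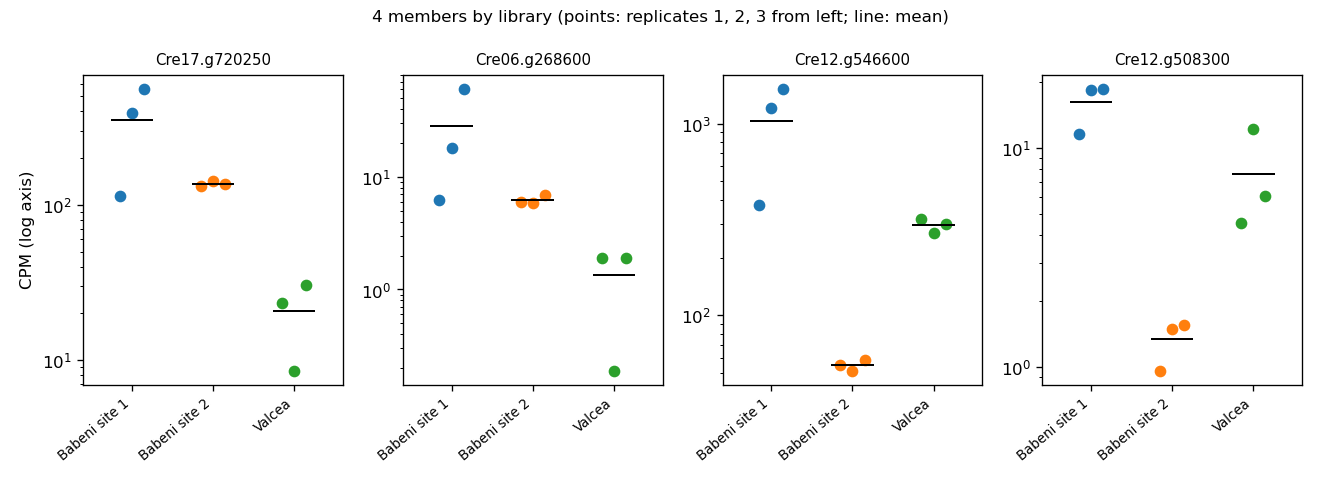
CPM of the 4 named members in each library on log axes, 1 panel per gene; points are replicates 1 to 3 from left to right and lines are site means. Cre17.g720250 and Cre06.g268600 are lowest at Valcea, and Cre12.g546600 and Cre12.g508300 are lowest at Babeni site 2.

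The calls between Babeni site 2 and Valcea moved with Valcea replicate 2. That library was the lowest of its site in 9 of the 10 members that rose, and the highest in 8 of the 13 that fell, where it was the lowest in 4. Over all 148 members it was the lowest in 50.7% and the highest in 41.2%, and over all tested genes in 37.5% and 41.1%. Without it 14 members were called, 5 rising and 9 falling, and 12 of these were among the 23. Over all tested genes 4939 of 13515 were called without it, against 4914 of 13556 with it. The part of Valcea replicate 2 in the result beyond this was not tested. With quantile normalization 7 members rose and 15 fell, and over all tested genes 2462 rose and 2417 fell, against 2658 and 2256 without it.

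The authors' deposited tables list 147 of the 148 members as higher at Babeni site 1 than at Valcea, where they list 8.91% of all genes. They list all 148 as lower at Babeni site 2 than at Babeni site 1, where they list 15.4% of all genes. The rule used both comparisons, and nothing is read from these counts.

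Of the members 123 carry identifiers of the form that names a chromosome after the letters Cre, and 25 (16.9%) carry plain numbered identifiers, against 24.1% of tested genes. Chromosome 12 held 23 members, 18.7% of those with a chromosome, against 11.7% of such tested genes. None of the 368 tested genes of chromosome 14 or the 106 of chromosome 15 was a member. These chromosomes hold 3.58% and 1.03% of the tested genes with a chromosome, so few of the 123 members would fall there at an even share. On the other chromosomes 0.761% to 1.48% of the tested genes were members, and on chromosome 12 it was 1.92%. These shares are a description with no test.

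Consecutive identifiers, which in this nomenclature run along the chromosome, were held by 5 pairs of members. How many pairs another set of 148 genes would hold was not worked out, so this count is not read as clustering. On chromosome 6 there were 2 pairs, whose log2 values over the 9 libraries correlated at 0.966 and 0.908. On chromosomes 12 and 13 there was 1 pair each, at 0.782 and 0.424, and the pair with plain numbers stood at 0.478. All 10 genes were chosen for the same site pattern, so these correlations describe how alike the pairs are within it. In the pair on chromosome 13, Valcea replicate 2 was 0.85 below the other Valcea libraries in the first gene and 1.18 above them in the second. Whether reads of overlapping neighbours or of near-identical copies were split by the counting cannot be read from the files.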

How the data were processed

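RNA of 9 Chlamydomonas samples was extracted with TRI-Reagent, and 300 ng of it went into each library of a stranded TruSeq mRNA kit, per the labels' protocols. The series holds 9 Elodea libraries besides, which were not used here. The submitters' processing notes name edgeR 3.4.2, HTSeq 0.5.3p9, TopHat2 2.0.11 and BWA 0.7.10 with no roles. Genome build and annotation are not given in the sources used here. Per gene and library the authors deposited a scaled signal, which the file name calls edgeR CPM. The comparison tables that the authors deposited hold log2 fold changes and mean log2 CPM, and a p-value and false discovery rate per gene, per the file headers. They list called genes only.

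The plan assumed plain CPM. Library totals differ (943616 to 1058462), so each library has its own scaling factor, and the planned test was used on these values. In each library 100% of values were within 0.01 of a whole multiple of the smallest one, and reads were recovered by that division. The main test for Babeni site 2 against Valcea used limma 3.58.1 (R 4.3.3), two-sided, on log2(CPM + 0.5) of the 9 libraries with no covariates. Its prior variance followed a mean trend. The fit was run on simulated data with the same dispersion for all genes and libraries. That run lacked the wider scatter of Babeni site 1, so it cannot show how the test performs for the members. This scale understates the change of low genes. Intervals and SE cover the spread between libraries only. Members, lists, tests and alternatives were chosen with earlier results of these data known. The planned gene lists and markers could not be used, since no names are paired with identifiers. Among members that passed the test between Babeni site 2 and Valcea, the printed identifiers are the 2 largest rises and 2 largest falls with a mean of 5 CPM or more at 1 of these sites and no overlap. Unnamed members given with values are the largest margin and the highest mean at Babeni site 1, unless the text says otherwise. The alternatives tried were pseudocounts of 0.1 and 2, no filter and a minimum of 5 CPM, median centring, quantile normalization, each library left out, a rule difference of 1.5, no trend, 2 sites only, the replicate number as a block, and, on recovered reads, DESeq2 1.42.0 and edgeR 4.0.16.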

Additional observations from a re-analysis of the deposited data

How the results depend on the processing

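The rule gave 45 genes with a difference of 1.5 and 102 to 187 under the other alternatives that keep all libraries, and 131 to 250 with a library left out. Between Babeni site 2 and Valcea, 14 of the 148 members were called with a pseudocount of 2 and 14 to 26 with a library left out. The other alternatives called 17 to 28, with 27 by edgeR and 28 by DESeq2 on recovered reads. The 17 are of the 110 members left by a minimum of 5 CPM. Over all tested genes 4914 were called, 3702 with a pseudocount of 2 and 4723 to 4939 with a library left out. A pseudocount of 0.1 gave 5308, edgeR 5348 and DESeq2 5357, and a minimum of 5 CPM gave 3970 of 10420. All 4 named members kept their direction and their call under each alternative, except Cre06.g268600 without Valcea replicate 2. They were picked among called members for large differences and no overlap, which favours this, so it does not speak for the other calls. Of all 23 called members, 12 were also called without Valcea replicate 2. Same-numbered libraries of different sites deviated from their site means with correlations of -0.01 to 0.24, 1 of 9 over 0.1. Differently numbered libraries gave -0.2 to 0.09. The 0.24 was that of replicate 2 of Babeni site 1 with Valcea replicate 2. Both of these libraries also enter the correlation of -0.57 across members. Whether a shared number pairs the samples of these sites cannot be told from these values, and the main fit does not pair them. With the replicate block 25 members and 4917 genes were called. With only the libraries of Babeni site 2 and Valcea these counts were 26 and 4926. Low counts limit the 16 members with a mean under 5 CPM at Babeni site 1, and a minimum of 5 CPM left 110 of the 148.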
